A study of Homo sapiens with 8 samples.

Results

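HERVH knockdown cells were compared directly with HERVH element deleted cells, so that acute depletion of HERVH RNA from many copies was set against permanent loss of a single copy, with no WT library in the main test. Both groups were made in H9, an established line of human embryonic stem cells (hESCs), and 4 of the 8 RNA-seq libraries of the series entered the comparison, 2 in each group. The knockdown libraries came from cells with the genotype wild type (CHD7-HA) that had received LNA-GapmeRs for 24 h. The other pair came from untreated cells that lack the HERVH element on chromosome 2, removed with Cas9 and a pair of guide RNAs in clonal lines. The paper blotted CHD7 of deleted cells with an HA antibody too, so no difference in the tag is implied here. The labels do not say whether the 2 deleted libraries are separate clones, or whether any replicates were separate cultures, so p-values measure only the spread between these libraries, which may be technical. No library of cells given a control GapmeR was used here. Loss of HERVH RNA, the GapmeR treatment with its transfection, and the history of the deleted clones therefore cannot be told apart. All 57773 gene rows were used, of which 21264 had enough reads to be tested.

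HERVH is a family of endogenous retroviruses, present as many copies across the human genome. In hESCs a subset of copies is transcribed from the LTR7 promoter, and the RNA is abundant and largely nuclear. LNA-GapmeRs are short antisense oligonucleotides with locked nucleic acid ends that direct RNase H to cleave the RNA they pair with, so oligonucleotides matched to repeated sequence can act on many copies together. A Cas9 deletion removes 1 locus from the DNA and leaves the others in place.

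The sequences of the reagents show how far the perturbations differ in reach. The 3 HERVH GapmeRs are given 5′ to 3′ as listed by the study, and each is antisense to HERVH RNA.
SHHERVH_3: ggaagatttgggacga
SHHERVH_4: attgggacctagctcg
SHHERVH_12: atgtggagtgggtagc
On GRCh37 they had 246, 244 and 621 perfect target sites respectively, and 1109 of the 1111 sites lay in HERVH copies listed by the study. Of the 96 copies that the study's table lists as expressed in WT, 80 held at least 1 site and 15 held a site of all 3.
The guides that flank the deleted element are given with the adjacent genomic PAM in capitals.
5′ guide: ttagaagtataccgaactcaGGG
3′ guide: cagcatccaacgatcacagcAGG
Each guide had a single perfect site, on the plus strand at chr2:210163938-210163957 and chr2:210169902-210169921 (GRCh37), with 5964 bases between the cuts. The deleted span itself held 2 GapmeR sites, for 2 different GapmeRs, so the copy absent from the deleted cells was also a target in the knockdown.

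Reads counted on genes ranged from 14802049 to 23156445 in the 4 libraries, and 3 counts in a library corresponded to 0.129 to 0.213 CPM, the reads of a gene scaled to library size. Knockdown replicate 2 stood apart. Its 10 most abundant genes took 8.87% of reads, against 4.09% to 5.08% in the other 7 libraries of the series. It also differed from its partner by base composition. Genes above a mean log2 CPM of 2 were divided into 5 equal bins by exonic GC content. The median log2 difference from the deleted cells was -0.465 in the GC-poorest bin and 0.592 in the GC-richest bin for replicate 2, while the bins of replicate 1 stayed between -0.052 and 0.018. The median replicate SD on the log2 CPM scale was 0.255 in the knockdown and 0.0815 in the deleted cells. Gene length moved with the comparison as well. Among 5 equal bins of protein-coding genes above the same limit, the fitted median went from 0.231 in the shortest to -0.217 in the longest, or from 0.103 to -0.139 with GC correction, and in the GC-poorest bin of all such genes it was -0.233 before correction. After a per-library GC correction, the fitted medians of the bins lay between -0.005 and 0.020, and the chromosome medians between -0.056 and 0.082, so no whole chromosome stood apart between the groups.

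**Figure D1:**
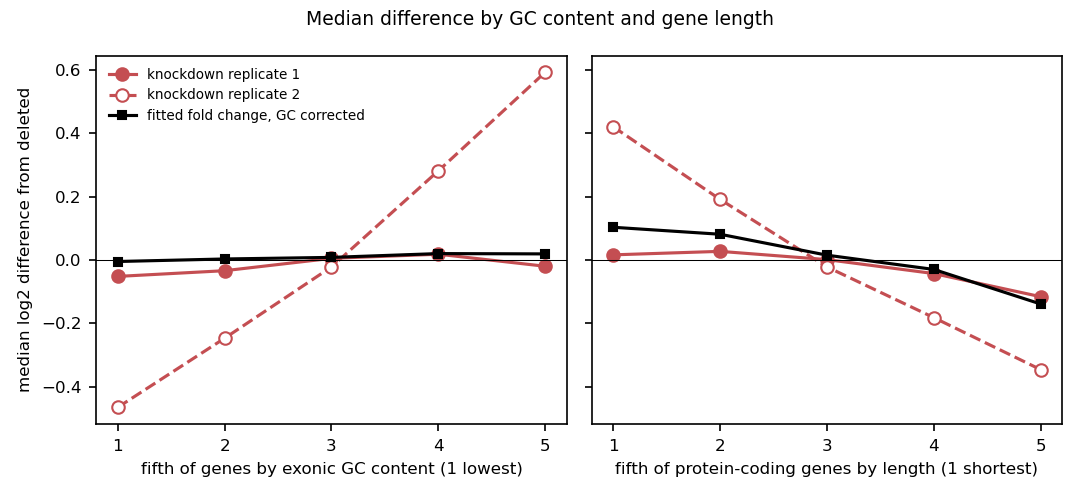
Median log2 difference from the mean of the deleted cells (y axis) in 5 bins of exonic GC content (left, bin 1 lowest) and of the length of protein-coding genes (right, bin 1 shortest), for each knockdown replicate, with the median fitted log2 fold change after GC correction as black squares. Replicate 2 rises from -0.465 to 0.592 with GC content and replicate 1 does not.

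A DEG had an FDR below 0.01 and at least a 2-fold difference, and log2 fold changes are knockdown minus deleted. The fit of the 4 libraries called 2 genes higher in the knockdown (0.00941% of genes tested) and 0 lower (0.0%), although 3004 genes in either direction had an unadjusted p below 0.05. DESeq2 called 77 higher and 55 lower on the same libraries, and edgeR's exact test 108 and 107. At an FDR below 0.05 the 4-library fit called 6 genes higher (0.0282%) and 1 lower (0.0047%). The difference between the knockdown replicates followed GC content, and the 4-library fit made few calls. Why the calls were few was not tested. Beside the 4-library fit, 2 other edgeR fits are given. The GC-corrected fit of the 4 libraries called 33 genes higher (0.155%) and 21 lower (0.0988%). The fit of all 8 libraries, in which WT and CHD7 knockout libraries helped to estimate the spread, called 29 higher (0.124%) and 19 lower (0.0809%). That fit does not address GC content. Knockdown replicates differed more than deleted ones, with median SDs of 0.255 and 0.0815 on log2 CPM. A shared spread may therefore be too small for this comparison, and the 8-library FDRs too low. In total 32 genes were DEGs in both of these fits, 22 higher (0.103%) and 10 lower (0.047%), which is 59.3% of the GC-corrected calls and 66.7% of the 8-library calls. This set was chosen after its values were seen. Counts of calls depended on single libraries, rising to 1002 higher and 583 lower without knockdown replicate 1, and to 224 and 487 without knockdown replicate 2, against 15 and 1 without deleted replicate 1 and 19 and 3 without deleted replicate 2.

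**Figure D2:**
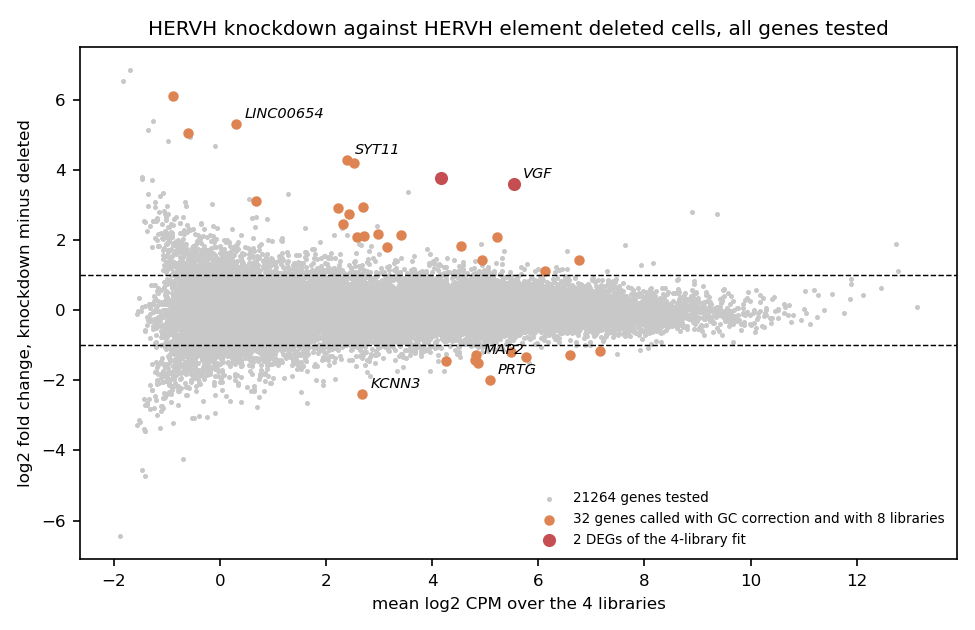
Log2 fold change of knockdown minus deleted cells (y axis) against mean log2 CPM of the 4 libraries (x axis) for the 21264 genes tested, with dashed lines at a 2-fold difference. The 2 DEGs of the 4-library fit, VGF among them, are red, and the other genes called in both the GC-corrected and the 8-library fit are orange.

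VGF was a DEG of the 4-library fit and of each of the 15 fits run, those that left out a library included. VGF, a secreted neuropeptide precursor of neurons and endocrine cells (chr7:100805790-100808850, minus strand), had 139 and 194 CPM in the knockdown and 14.5 and 12.2 CPM in the deleted cells. The 4-library fit put the difference at 3.60 on the log2 scale (SE 0.23), with an edgeR FDR of 0.00326. WT had 16.1 and 13.8 CPM, next to the deleted cells. The knockdown thus stood alone among the 3 groups.

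WT libraries took no part in the 4-library test and give a second point of comparison. The distance between the groups on log2(CPM + 0.5) was divided into 3 equal stretches, and WT was called near a group when its mean lay in the outer stretch on that side or beyond, a description without a test. Among all genes tested, WT lay near the deleted cells for 60.4%, near the knockdown for 25.7% and between for 13.9%. For the 22 higher genes these numbers were 13, 7 and 2, and for the 10 lower genes WT lay near the deleted cells in 10 of 10. The share of 13 of 22 (59.1%) is near that over all genes. The 8-library fit that helped to choose these genes holds the WT libraries, so WT is not independent of this set.

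**Figure D3:**
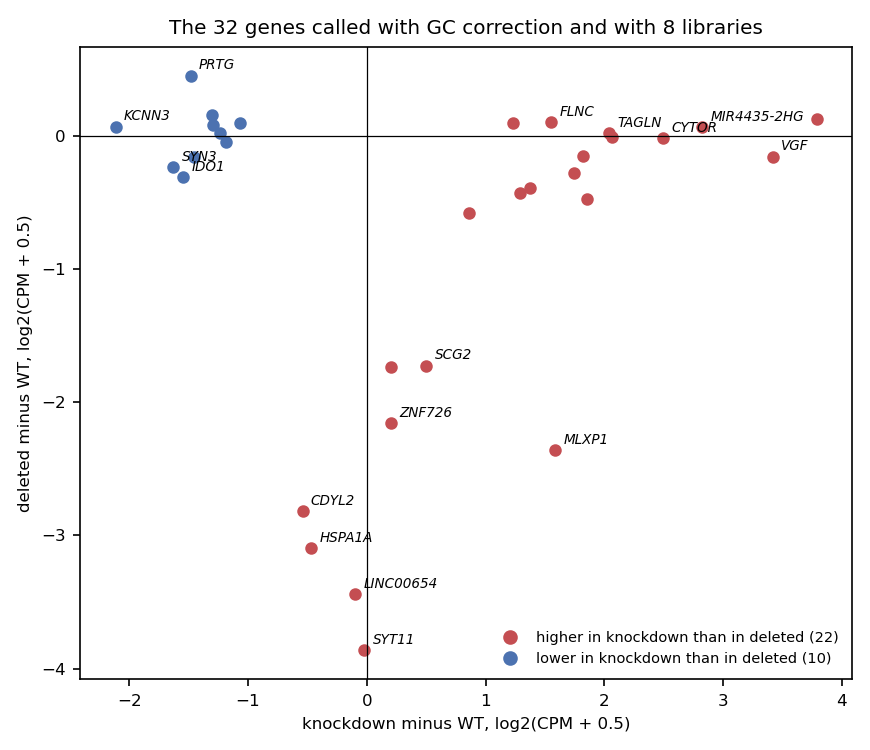
Position of the 32 genes called in both the GC-corrected and the 8-library fit, as the difference of the knockdown from WT (x axis) and of the deleted cells from WT (y axis), both on log2(CPM + 0.5) and averaged over 2 libraries. Points along the horizontal line differ from WT in the knockdown, and points along the vertical line, with SYT11 and LINC00654 at the bottom, differ from WT in the deleted cells.

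Of the genes that were higher with WT near the deleted cells, several encode proteins of the actin cytoskeleton and cell surface. TAGLN, an actin-binding protein of smooth muscle, had 55.0 and 105 CPM in the knockdown, and 17.6 and 19.3 CPM in the deleted cells, with WT near the latter. It rose in the GC-corrected fit (log2 fold change 1.84, FDR = 0.00227) and in the 8-library fit (2.11, FDR = 0.00390), and was at 2.08 with an FDR of 0.116 in the 4-library fit. CAV1, the main coat protein of caveolae, had 25.1 and 20.2 CPM in the knockdown and 5.64 and 4.37 CPM in the deleted cells. FLNC, which crosslinks actin, had 165 and 197 against 63.2 and 68.1 CPM. ACTA1, skeletal muscle actin, had 11.6 and 15.9 against 3.51 and 2.70 CPM, and RHOB, a small GTPase, had 31.3 and 59.9 against 13.1 and 11.7 CPM. These 4 genes had 4-library log2 fold changes between 1.43 and 2.15, and rose in the GC-corrected and 8-library fits. For the integrin gene ITGA3, WT lay between the groups, at 30.9 and 25.2 CPM against 44.5 and 58.3 in the knockdown and 19.2 and 18.0 in the deleted cells. The remaining higher genes of the set were of varied kinds. RAB13, a GTPase of vesicle transport, had 108 and 100.1 CPM against 48.6 and 45.7, and TRBC2, a constant segment of the T cell receptor whose near-identical copy TRBC1 may share reads, had 13.5 and 20.2 against 4.75 and 4.59. COL18A1-AS1, whose reads cannot be told apart from those of COL18A1 without a known strand setting, had 11.8 and 22.9 CPM against 3.04 and 4.42. The pseudogene MLXP1 had 573 and 298 counts in the knockdown, 49 and 12 in the deleted cells and 172 and 188 in WT, which lay between.

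The lncRNAs CYTOR and MIR4435-2HG were also higher in the knockdown alone. CYTOR had 14.4 and 13.3 CPM in the knockdown, 2.09 and 1.94 CPM in the deleted cells and 1.75 and 2.39 CPM in WT (4-library log2 fold change 2.75, SE 0.28, FDR = 0.0371, edgeR). MIR4435-2HG had 19.5 and 16.5 CPM in the knockdown and 2.82 and 1.73 CPM in the deleted cells (2.94, SE 0.32, FDR = 0.0487, edgeR). The pair are near-identical copies that share reads, so how the reads divide between them is uncertain. ENSG00000273445, which lies within CYTOR on the other strand, had 41 and 28 counts in the knockdown and 0 and 1 in the deleted cells. It passed the read filter of the 4 libraries through its knockdown reads alone, which favours a place above the deleted cells. The strand setting of the counting is not given in the sources used here, so its reads cannot be told apart from those of CYTOR.

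For another set of genes WT stood at the level of the knockdown, and the deleted cells were low. SYT11, a synaptotagmin of vesicle trafficking (chr1:155829358-155854990, plus strand), had 21.7 and 23.8 CPM in the knockdown, 0.769 and 1.56 CPM in the deleted cells and 22.5 and 23.6 CPM in WT. The difference was 4.27 on the log2 scale (SE 0.36) with an edgeR FDR of 0.0166, which became 0.000479 with GC correction. LINC00654, a lncRNA on chromosome 20 (chr20:5463382-5507355, minus strand), had 117 and 78 counts in the knockdown, 3 and 3 in the deleted cells and 130 and 150 in WT. The ratio of summed scaled counts was 41.8, with an exact 95% interval of 18.9 to 115 that covers counting error only. Its 4-library FDR was 0.0166. LINC00654 passed the read filter of the 4 libraries through its knockdown reads alone, which favours a place above the deleted cells.

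CDYL2, a chromodomain protein gene, had 3.56 and 5.10 CPM in the knockdown, 0.385 and 0.593 CPM in the deleted cells and 6.51 and 6.36 CPM in WT. ZNF726, a zinc finger gene on chromosome 19, had 65 and 22 counts in the knockdown against 2 and 1, and 42 and 46 in WT. Among the 4 libraries it passed the read filter through its knockdown reads alone, which favours a place above the deleted cells. SCG2, the granin secretogranin II, had 12.9 and 10.3 CPM in the knockdown, 2.27 and 1.89 CPM in the deleted cells and 8.54 and 7.48 CPM in WT. All 3 genes were DEGs in the GC-corrected and 8-library fits and had an FDR above 0.05 in the 4-library fit.

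The heat shock gene HSPA1A had 10.1 and 15.5 CPM in the knockdown, 1.92 and 1.35 CPM in the deleted cells and 19.4 and 15.9 CPM in WT. Its near-identical neighbour HSPA1B had 25.8 and 34.9 CPM in the knockdown and 28.9 and 31.1 CPM in the deleted cells, so the groups overlapped, and the division of reads between the pair is uncertain. Among the 18 heat shock genes tested, HSPA1A was the only DEG of the GC-corrected fit. That fit called 0.155% of all genes higher and 0.0988% lower. The median log2 fold change of the 18 genes was -0.02.

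**Figure D4:**
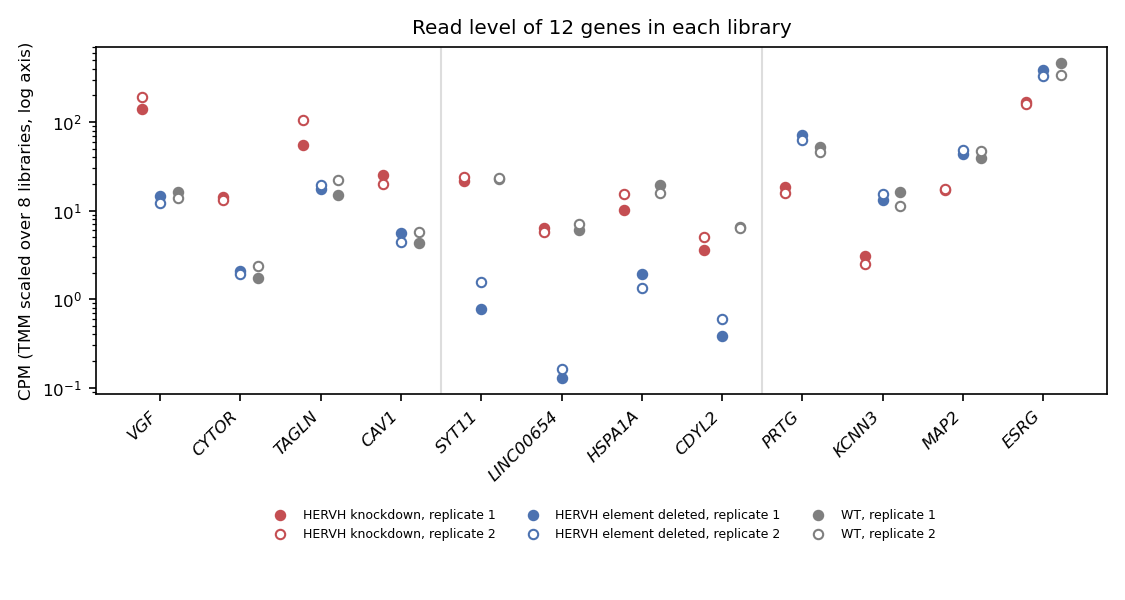
CPM on a log axis for 12 genes in each library of the knockdown (red), the deleted cells (blue) and WT (grey), with replicate 1 filled and replicate 2 open. The left 4 genes are high in the knockdown alone, the middle 4 are low in the deleted cells alone, and the right 4 are low in the knockdown alone.

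The genes lower in the knockdown included several of neural and adhesion function. PRTG, an immunoglobulin superfamily receptor of early embryos (chr15:55903742-56035350, minus strand), was the gene lower at an FDR below 0.05 in the 4-library fit. It had 18.4 and 16.0 CPM in the knockdown and 71.0 and 63.3 CPM in the deleted cells, so PRTG was at -1.99 on the log2 scale (SE 0.20), with an edgeR FDR of 0.0371. WT had 51.9 and 46.1 CPM. KCNN3, a calcium-activated potassium channel gene, had 3.07 and 2.48 CPM in the knockdown and 13.3 and 15.4 CPM in the deleted cells. It was at -2.39 on the log2 scale in the 4-library fit (FDR = 0.0703), and it fell in the GC-corrected fit (-2.31, FDR = 0.00300). MAP2, a microtubule protein of dendrites, had 17.3 and 17.3 CPM in the knockdown against 43.3 and 48.2.

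RAB3C and SYN3, a GTPase and a synapsin of synaptic vesicles, also fell in the GC-corrected and 8-library fits. RAB3C had 19.7 and 15.2 CPM against 51.5 and 45.3, and SYN3 had 10.1 and 13.5 against 33.0 and 30.2. SLC1A3, a glutamate transporter, had 39.1 and 31.0 CPM against 92.3 and 80.4. IDO1, which begins tryptophan breakdown, had 18.2 and 18.3 CPM against 44.8 and 42.6. HLTF, a DNA translocase of the SWI/SNF family, had 66.7 and 58.4 CPM against 159 and 141. C1orf21 had 31.4 and 28.3 CPM against 71.3 and 63.7. In each of these genes both knockdown libraries lay below both deleted libraries, as they did for 24.7% of all genes tested.

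Among 27 tested genes of a list of synaptic and neuronal genes, the GC-corrected fit called SYT11 higher and KCNN3 and MAP2 lower, against 0.155% higher and 0.0988% lower among all genes. Both knockdown libraries lay below both deleted libraries for 14 genes of the list and above for 7, where the shares over all genes were 24.7% and 24.0%, so that the count above was near its background. Its median log2 fold change was -0.38 (-0.38 with GC correction), against 0.02 over all genes. By replicate the medians were -0.38 and -0.32. The summed CPM of the list overlapped, at 491 and 630 in the knockdown and 614 and 617 in the deleted cells. The tested genes of the list had a median length of 55.0 kb, against 20.4 kb over all genes, and the part of length was not tested. STMN2, a tubulin-binding protein of growing neurites, had 1.81 and 1.97 CPM in the knockdown against 8.38 and 6.58, and SLITRK3, a synaptic adhesion gene, had 0.712 and 0.801 against 4.53 and 2.86. Both had an FDR between 0.01 and 0.05 in the GC-corrected fit. The list of 16 tested neuronal secretory genes, which holds VGF and SCG2, had a median of -0.08 (-0.21 with GC correction). Of its genes 4 lay above and 6 below without overlap, where 24.0% and 24.7% of all genes did so, and the count above is near the background. VGF and SCG2 were the DEGs of that list in the GC-corrected fit, where 0.155% of all genes were called higher.

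ESRG, a lncRNA built from a HERVH copy (chr3:54666149-54673884, minus strand), is the best known HERVH transcript of hESCs. It had 170 and 158 CPM in the knockdown, 384 and 331 CPM in the deleted cells and 468 and 337 CPM in WT. ESRG was at -1.15 on the log2 scale (SE 0.17) in the 4-library fit, where its FDR was 0.120. It fell in the GC-corrected fit (-1.17, FDR = 0.00508), while the 8-library FDR was 0.0115. The gene holds a site of each GapmeR, SHHERVH_4 (chr3:54672531-54672546) and SHHERVH_3 (chr3:54672668-54672683) in exons and SHHERVH_12 (chr3:54671653-54671668) in an intron. The other tested genes with a site in an exon, LRRK1 and LINC00665, had log2 fold changes of -0.43 and 0.16, with FDRs of 0.650 and 0.690. Sites in introns alone were found in 50 tested genes, whose median was -0.54 (-0.48 with GC correction). Both knockdown libraries lay below both deleted libraries for 29 of these and above for 6, against 24.7% and 24.0% of all genes. Their median length was 59.5 kb, and the part of length was not tested. The 4-library and GC-corrected fits called 0 of these 50 genes. Over all genes the GC-corrected fit called 0.155% higher and 0.0988% lower.

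In all 54 genes overlapped an expressed HERVH copy, and 48 were tested. The copies were picked by their level in WT cells of the same study, so the choice of genes is not independent of these samples. Their median was -0.38 on the log2 scale (-0.24 with GC correction), against 0.02 over all genes. Both knockdown libraries lay below both deleted libraries for 28 of them, where the share over all genes was 24.7%, and above for 2, where it was 24.0%. Among the 23 genes with a copy in an exon the median was -0.61, with 18 below and 2 above. Among the 25 with a copy in introns alone it was -0.25, with 10 below and 0 above, and with GC correction it was -0.09. These 25 genes were long and GC-poor, with a median length of 229.5 kb and a median exonic GC content of 41.0%, against 20.4 kb and 47.7% over all genes tested, and their median of -0.25 was close to the -0.217 of the longest bin of protein-coding genes. The 23 genes with a copy in an exon had a median length of 75.2 kb and a GC-corrected median of -0.57. The part of length in these medians was not tested. Medians over the 48 genes were -0.29 in knockdown replicate 1 and -0.51 in replicate 2. The 4-library fit made 0 calls among the 48 genes, and the GC-corrected fit called ESRG, where 0.0988% of all genes were called lower.

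**Figure D5:**
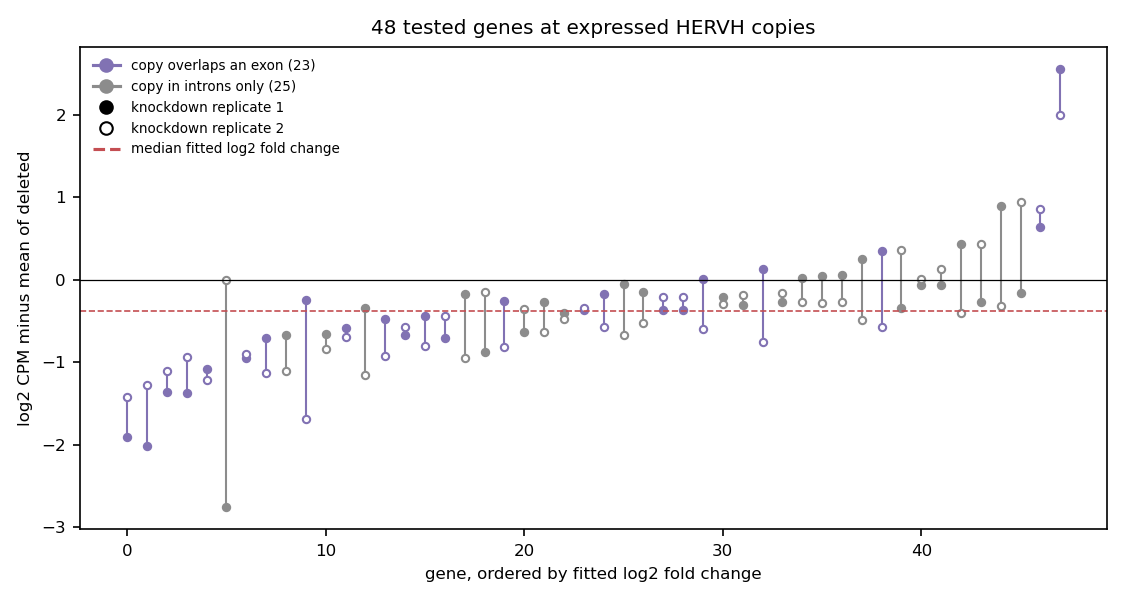
Log2 CPM difference of each knockdown replicate from the mean of the deleted cells (y axis) for the 48 tested genes at expressed HERVH copies, ordered by fitted log2 fold change (x axis) and coloured by whether a copy overlaps an exon. Most genes lie below 0, around the dashed median of -0.38, and ENSG00000260834 is the point pair at the far right.

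The named genes of this group varied widely. LINC00458, a lncRNA of hESCs, had 86 and 93 counts in the knockdown and 565 and 241 counts in the deleted cells, and OLMALINC had 13.5 and 16.5 CPM against 35.4 and 33.6. C13orf42, at a copy on chr13:51744001-51749142, had 44.6 and 47.4 CPM against 85.5 and 85.8, a log2 fold change of -0.93 (FDR = 0.164, and 0.00958 with GC correction), below the 2-fold limit. CACNA2D3 and PCDH11X, which span highly ranked copies in introns, had log2 fold changes of -0.03 and 0.06.

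ENSG00000260834, a lncRNA at a HERVH copy on chromosome 16 (chr16:65224876-65268836, minus strand), went the other way. It had 7.99 and 5.54 CPM in the knockdown, 1.62 and 0.971 CPM in the deleted cells and 21.3 and 15.3 CPM in WT. Its level was thus below WT in both groups and lowest in the deleted cells, with a log2 fold change of 2.34 (SE 0.40) and FDRs of 0.135 in the 4-library fit, 0.0165 with GC correction and 0.00438 with 8 libraries.

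Around the deleted element, 8 of the 15 listed neighbours were tested. Both knockdown libraries lay below both deleted libraries for 7 of the 8, against 24.7% of all genes, and the median log2 fold change was -0.41, or -0.25 with GC correction. These genes were also long and GC-poor (medians of 121.2 kb and 41.4%), and the part of length was not tested. MAP2, which starts at chr2:210288771 on the side of the 3′ guide, was the DEG of the GC-corrected fit, where 0.0988% of all genes were called lower. The WT values of MAP2, 39.8 and 46.9 CPM, were near those of the deleted cells. LANCL1 was at -0.82 (FDR = 0.235, and 0.0430 with GC correction) and PIKFYVE at -0.40. RPE was at -0.05 in the 4-library fit and at 0.22 with GC correction. Pseudogenes on the other side were at the floor in the deleted cells. PKP4P1 had 12 and 5 counts in the knockdown, 0 and 0 in the deleted cells and 29 and 26 in WT. Its knockdown level was 7.29-fold a floor of 3 counts over the deleted group, a ratio that leaves out counting error. HSPA8P6 had 6 and 2 counts against 0 and 0, or 3.43-fold the same floor, again without counting error, and WT had 13 and 22. Neither passed the read filter of the 4-library fit.

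Metallothioneins bind zinc and other metals, and several of their genes had a wide gap between the knockdown replicates. The list of 12 genes also holds SLC30A1, a zinc transporter gene, so the values of the list are not of metallothioneins alone. All 7 tested genes of the list had both knockdown libraries above both deleted libraries, as had 24.0% of all genes, and their median log2 fold change was 1.87 (1.67 with GC correction). The summed CPM of the list was 92.1 and 163 in the knockdown, 66.6 and 50.8 in the deleted cells and 99.6 and 49.3 in WT. The WT libraries thus spanned knockdown replicate 1 and both deleted libraries. MT2A had 17.8 and 66.1 CPM in the knockdown and 3.04 and 4.80 CPM in the deleted cells, and MT1M had 33 and 86 counts against 3 and 3. MT1M passed the read filter through its knockdown reads alone, which favours a place above the deleted cells. MT1E had 4.27 and 12.1 CPM against 1.11 and 0.432, and its WT libraries, at 3.83 and 1.36, also lay apart. None of the 7 was a DEG in the 4-library, GC-corrected or 8-library fit, where at most 0.155% of all genes were called higher. In the GC-corrected fit these 3 had FDRs between 0.0109 and 0.0165. Metallothionein genes resemble each other closely, so the split of reads among them is uncertain.

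Genes of the TGFβ pathway included one large difference. CER1, a secreted antagonist of Nodal and BMP, had 39 and 38 counts in the knockdown and 1 and 2 in the deleted cells, with 7 and 4 in WT, a ratio of 33.0 (exact 95% counting interval 10.9 to 164). It rose in the GC-corrected fit (FDR = 0.00909), and was not a DEG in the 8-library fit (FDR = 0.0124) or the 4-library fit (FDR = 0.104). CER1 passed the read filter of the 4 libraries through its knockdown reads alone, which favours a place above the deleted cells. The ligand gene TGFB1 had 31.8 and 27.2 CPM against 13.4 and 11.4, and the activin antagonist FST had 40.5 and 35.4 against 12.4 and 18.4, with GC-corrected FDRs of 0.0893 and 0.0125. SMAD3, a signal transducer of the pathway, was at 0.27 (FDR = 0.519). Over the 29 tested genes the median was 0.30, with 15 above and 4 below without overlap, against 24.0% and 24.7% of all genes.

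Targets of p53 were compared as a list. Of 23 tested genes 14 lay above and 1 below without overlap, against 24.0% and 24.7% of all genes. Their median was 0.24 on the log2 scale, and 0 were DEGs in the 4-library or GC-corrected fit. The GC-corrected fit called 0.155% of all genes higher. CDKN1A, the cell cycle inhibitor p21, had 34.3 and 59.8 CPM in the knockdown, 20.4 and 14.2 CPM in the deleted cells and 47.6 and 21.1 CPM in WT, so that the WT range covered the first knockdown library. TP53I3 had 28.9 and 37.9 CPM against 14.2 and 16.0. Of 24 immediate early genes 11 lay above and 3 below without overlap, against the same shares, with a median of 0.30 that was 0.08 after GC correction. JUN had 23.1 and 32.8 CPM against 11.5 and 6.53, and its WT libraries had 22.0 and 11.6. For 28 actin and YAP target genes the median was 0.28, or 0.10 with GC correction, and TAGLN was among the DEGs of the list in the corrected fit.

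Of the pluripotency genes, POU5F1, SOX2 and NANOG passed no threshold in the 4-library, GC-corrected or 8-library fit. POU5F1, the gene of OCT4, had 829 and 1474 CPM in the knockdown and 955 and 934 CPM in the deleted cells, so the groups overlapped (log2 fold change 0.25, FDR = 0.659). SOX2 was at -0.10 and NANOG at -0.10, with FDRs of 0.806 and 0.847. Among 26 tested primed pluripotency genes the median was -0.01. ESRG was the one called in the GC-corrected fit, where 0.0988% of all genes were called lower. The summed level of the list was 12711 and 12499 CPM in the knockdown and 12205 and 12085 CPM in the deleted cells. The summed CPM of the mesendoderm list was 21.8 and 22.2 in the knockdown and 12.8 and 14.9 in the deleted cells, with CER1 among its members, and SOX17 had 0 counts in all 4 libraries. For the trophoblast and amnion list it was 12.9 and 16.6 against 13.6 and 14.1, and CGA had 0 counts. The ectoderm list summed to 439 and 817 against 342 and 369, of which NES, a gene also expressed beyond the ectoderm, made up 396 and 731 against 279.8 and 309. The median over its 8 tested genes went the other way, at -0.62 (-0.85 with GC correction). Of these genes 4 lay below and 2 above without overlap, against 24.7% and 24.0% of all genes, so the count above was near its background. SIX3, a forebrain transcription factor gene, was at -2.58 (FDR = 0.193, and 0.0281 with GC correction). PAX6 was at -1.15 (FDR = 0.314) and FOXF2 had 0 counts in all 4 libraries. In bulk samples fewer cells of a type and less RNA per cell cannot be told apart.

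CHD7, the chromatin remodeller whose knockout is part of the same series, had 626 and 514 CPM in the knockdown and 711 and 691 CPM in the deleted cells, a log2 fold change of -0.32 (FDR = 0.426). MALAT1, the nuclear lncRNA targeted by another GapmeR of the study, was at -0.21 (FDR = 0.586). The lists of interferon and RNA sensing genes (25 tested), FGF and ERK feedback (21), cholesterol synthesis (28), integrated stress and serine synthesis (25), BCL2 family (17), glycolysis and hypoxia (28), chromatin remodellers (26), retroelement silencing (20) and naive pluripotency (6) held 0 DEGs in the 4-library and GC-corrected fits. Calls were rare over all genes as well, at 0.155% higher and 0.0988% lower in the GC-corrected fit. The medians of these lists lay between -0.19 and 0.20 in the 4-library fit, and between -0.34 and 0.18 with GC correction. The lowest corrected medians were those of the integrated stress and serine list (-0.34) and of naive pluripotency (-0.32). For the former, the medians were -0.46 in knockdown replicate 1 and 0.03 in replicate 2. Among these lists 12 of the 26 chromatin remodellers lay below the deleted cells without overlap and 2 above, and 10 of the 28 cholesterol genes lay above and 3 below, against 24.7% below and 24.0% above over all genes. The remodeller genes had a median length of 107.8 kb.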

How the data were processed

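RNA-seq libraries of H9 cells were rRNA-depleted and strand-specific. Per the labels and the methods, the authors used STAR with hg19 and Ensembl genes, and deposited counts per gene from HTSeq-count, with no normalization. Tool versions and the strand setting are not given in the sources used here. HTSeq summary rows were left out, and the rows of mitochondrial genes held 0 in every library.

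Here edgeR 4.0.16 (R 4.3.3) was used: filterByExpr, TMM scaling and the quasi-likelihood test on the 4 libraries with group as the sole factor (2 residual degrees of freedom), and Benjamini-Hochberg FDR. Alternatives were DESeq2 1.42.0 and the settings named in the closing section. The GC correction was a loess per library (span 0.3) on exonic GC content, used as offsets. CPM values were scaled over all 8 libraries. The 4-library edgeR fit, with and without GC correction, was also run on simulated counts, and the outcome is not reported here. Positions came from GENCODE on GRCh37, which placed 55538 genes (96.1%). Tables used Python 3.11.15 with pandas 2.3.3.

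Members and lists were chosen with earlier results of these data known. Named are the marker genes, DEGs with non-overlapping groups filled by FDR below 0.05, list members of smallest p, genes at the highest HERVH copies or with an exonic GapmeR site, genes the study names beside RNA-seq and the flanking genes. The genes called in both other fits, and members named beyond the smallest p, were chosen after their values were seen. A few genes within these rules are left unreported.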

Additional observations from a re-analysis of the deposited data

How the results depend on the processing

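The numbers of DEGs depended on the processing, while the direction of the named genes mostly did not. Higher and lower DEGs numbered 2 and 0 in the 4-library fit. They numbered 77 and 55 with DESeq2, 108 and 107 with the exact test, 161 and 133 with no expression filter, 33 and 21 with GC correction, 29 and 19 with all 8 libraries and 6 and 1 at an FDR below 0.05. With RLE scaling or at least 1 CPM in 2 libraries they were 2 and 0, and 3 and 0 with upper-quartile scaling. Leaving out each library in turn gave 15 to 1002 higher and 1 to 583 lower, and a lone library is then assumed to vary like the other group. The replicate numbers are shared by label alone. Deviations of same-numbered libraries correlated at 0.0955 across genes tested and at 0.314 among the better expressed genes, over only 2 pairs. The fit with a replicate block gave 167 and 147, and with the block and GC correction 150 and 235. The median of genes at expressed HERVH copies was -0.383, lay between -0.506 and -0.297 on leaving out a library and was -0.244 with GC correction. The SD of its values in the 2 knockdown replicates was 0.153. Reversals were those of RPE (0.22 with GC correction, 0.21 with the block and GC correction), CACNA2D3 (0.0014 with 8 libraries) and, on leaving out a library, CACNA2D3 (-0.06 to 0.02), PCDH11X (-0.41 to 0.42), LRRK1 (-1.15 to 0.08), NANOG (-0.35 to 0.12) and POU5F1 (-0.20 to 0.60). The causes were not tested. Depth sets a floor of 0.129 to 0.213 CPM (3 counts), and 2 libraries per group leave 2 residual degrees of freedom.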
